A study of Mus musculus with 2 samples.

Results

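Osteoclasts are the multinucleated cells that dissolve bone, and the genes described here are 10 that act in their formation and in resorption: Tnfsf11, Tnfrsf11a, Oscar, Dcstamp, Ocstamp, Tcirg1, Atp6v0d2, Acp5, Ctsk and Calcr. They were taken by symbol, with every probe set (a group of short array probes that reads 1 transcript) that the platform annotation assigned to exactly 1 of them. This gave 14 of the 34945 probe sets of that kind, and 10 of the 18193 genes they cover. The samples were palate taken from BALB/c mouse fetuses at E18.5 (days of embryonic life), as 1 array of wild-type tissue and 1 array of tissue labelled null for both Myf5 and MyoD, which are transcription factors that commit cells to skeletal muscle. Whether each array held RNA of 1 fetus or of several is not in the labels, which also do not give what was deleted of each gene. The series asks what skeletal muscle contributes to palate development. With 1 array per genotype there is no replicate check and no p-value, and every difference below is between these 2 arrays.

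Osteoclasts arise from the monocyte and macrophage lineage by fusion of precursors. Tnfsf11 (RANKL), shown by osteoblasts, osteocytes, chondrocytes and T cells, binds Tnfrsf11a (RANK) on the precursor, and the transcription factor Nfatc1 then switches on the genes of fusion and resorption. The mature cell seals off a patch of bone, acidifies it with a proton pump and digests the collagen with secreted enzymes. Palatal bone is remodelled in this way as it forms in the fetus.

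Signals are the authors' MAS5 intensities after a common scaling of both arrays. Signals under 286.9 were raised to that floor before ratios were taken, so a fold with an array under it is a lower bound. A gene was called measured if 658.5 was reached on at least 1 array. Genes that reached it on 1 array only passed through their brighter array, which favours large folds. List counts include genes without a probe set assigned to them alone, which could not be measured. Ratios are log2 of the array labelled double null over wild type. As a yardstick, probe sets of the same gene differed with a pooled SD of 0.51 in log2 ratio, which covers probe effects and not differences between animals.

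Facts of the whole series touch these values. The measured Myod1 probe set read 1938 in wild type and 1663 on the other array, and the Myf5 probe set 516.9 and 531.3, so neither targeted gene told the arrays apart, and the second is called the array labelled double null. Whether these probe sets lie in the removed parts is not given. The Y-linked gene Eif2s3y read 10.8 and 2794, and Xist, transcribed from the inactive X chromosome of females, read 33813 and 16947 with its brightest probe set, so sex-linked transcripts differed between the arrays and cannot be told apart from genotype. All 8 skeletal muscle markers were lower (median log2 ratio -1.23), 6 of 7 oral epithelium markers were lower (-0.59) and all 7 neuron markers were higher (1.39). Palatal mesenchyme markers, 7 of 8 measured, had a median of -0.07, with 4 below 0 and 3 above. They ran from Msx1 at -1.89 to Shox2 at 0.14, whose other measured probe set gave -1.63. Their part in the osteoclast values was not tested.

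Of the 10 osteoclast genes, 5 were measured, namely Acp5, Ctsk, Tcirg1, Atp6v0d2 and Tnfsf11. Each of the 5 lay above the level for measured genes on both arrays, and each was lower on the array labelled double null by a modest amount, 1.25-fold to 1.49-fold. Their median log2 ratio was -0.47, against 0.07 over all 11238 measured genes, and 43.7% of measured genes had a ratio below 0. None of the 5 reached a 2-fold difference in either direction, where 4.22% of all measured genes were lower and 3.51% higher by that much. None reached 3-fold, which 1.17% of measured genes passed downwards and 0.498% upwards. At 1.5-fold, which 11.7% passed downwards and 13.2% upwards, none of the 5 was called, but Tcirg1 lay just short of it. Acp5 (-0.59) and Tcirg1 (-0.65) were at least 1.5-fold lower with the signals as deposited, both also with quantile normalization, and Atp6v0d2 joined them with scaling on the median ratio of reference genes. The log2 ratios of the 5 spanned 0.26, which is less than 0.51, the SD of same-gene probe sets. The sign of the smaller ratios moved with the scaling of the arrays, which shifts all genes together. Scaling the arrays to an equal median signal of reference genes raised the median of all genes by 0.43. Ctsk then had 0.10 and Tnfsf11 0.08, whereas Acp5 (-0.10), Tcirg1 (-0.16) and Atp6v0d2 (-0.06) stayed below 0. Under that scaling 7 of the 10 genes were measured, and the median of those 7 lay 0.42 under that of all genes. In bulk tissue, fewer cells of a type and less RNA per cell cannot be told apart.

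The other 5 genes, Tnfrsf11a, Oscar, Dcstamp, Ocstamp and Calcr, did not reach the level for measured genes on either array. Counted without that filter, 8 of the 10 genes had a ratio below 0, where 35.2% of all 18193 genes did. Of all these genes, 3804 were under the floor on both arrays, which set their ratio to 0. They could not count as below 0, and none of the 10 genes was among them. The 35.2% is therefore too low to serve as a like comparison for the 10 genes. Among measured genes the share was 43.7%.

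**Figure D1:**
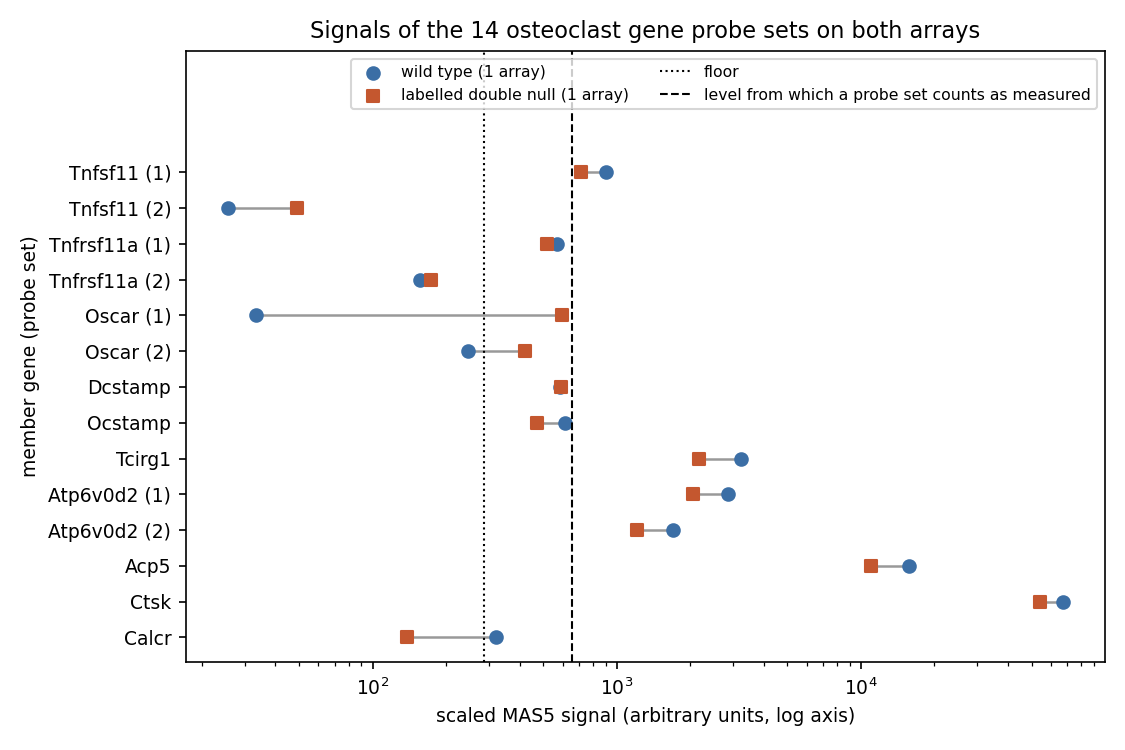
Scaled signal (log axis) of each of the 14 probe sets on the wild-type array (circles) and on the array labelled double null (squares); (1) and (2) are probe sets of the same gene, the first being the one that represents it. The 6 probe sets to the right of the dashed line at 658.5 all had the lower signal on the array labelled double null, and the 2 Oscar probe sets had the higher signal there.

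The ligand came first in the order of the pathway. Tnfsf11 read 900.6 on the wild-type array and 713.4 on the array labelled double null, 1.26-fold lower (log2 ratio -0.34). Its other probe set read 25.5 and 49.0, under the floor on both arrays, and gives no ratio. Tnfsf11 was thus measured by 1 probe set, not far above the level for measured genes.

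The receptor Tnfrsf11a, through which the ligand acts on precursors, read 569.8 and 520.1, a log2 ratio of -0.13, with a further probe set under the floor on both arrays (157.1 and 174.0). The decoy receptor Tnfrsf11b (osteoprotegerin), which is not among the 10 genes and binds the ligand away from its receptor, read 593.4 and 494.8, a log2 ratio of -0.26. By their representing probe sets, ligand, receptor and decoy thus had the lower reading on the array labelled double null, each by less than the SD of 0.51. The receptor and the decoy were too dim to count as measured, so no ligand-to-decoy ratio is given.

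Oscar, a co-stimulatory receptor of osteoclasts that binds collagen, was the gene that went the other way. Its representing probe set read 33.2 in wild type, under the floor, and 595.0 on the array labelled double null, at least 2.07-fold higher. The other read 246.3 and 421.1, at least 1.47-fold higher. Both probe sets had the higher reading on the array labelled double null, and neither reached the level for measured genes.

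The fusion proteins were dim on both arrays. Dcstamp, the membrane protein without which precursors do not fuse, read 583.6 and 588.9, nearly equal values. Ocstamp, its relative with a like role, read 615.8 and 469.4, a log2 ratio of -0.39. Calcr, the calcitonin receptor and a marker of mature osteoclasts, read 321.5 in wild type and 138.4, under the floor, on the other array. The floor limits Calcr to at least 1.12-fold lower.

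The proton pump subunits were lower together. Tcirg1, the a3 subunit that places the vacuolar ATPase at the resorbing membrane, read 3224 on the wild-type array and 2167 on the array labelled double null, 1.49-fold lower (log2 ratio -0.57). Atp6v0d2, the d2 subunit found mainly in osteoclasts and also needed for fusion, read 2855 and 2055 with its representing probe set and 1703 and 1214 with the other. Those 2 probe sets gave log2 ratios of -0.47 and -0.49, the only case among the 10 genes in which 2 measured probe sets could be compared, and they differed by far less than the SD of 0.51.

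The resorbing enzymes had high signals on both arrays. Acp5, tartrate-resistant acid phosphatase, the classical stain of osteoclasts, read 15744 on the wild-type array and 11020 on the array labelled double null, 1.43-fold lower (log2 ratio -0.51). Ctsk, cathepsin K, the collagen-cleaving protease of the resorption pit, read 67243 and 53957, 1.25-fold lower (-0.32). Ctsk was at percentile 99.7 of probe sets in wild type and 99.3 on the other array, and Acp5 at 97.3 and 95.5. Both genes thus stayed among the brightest probe sets on both arrays. They are not limited to osteoclasts, since fibroblasts can express Ctsk and macrophages Acp5.

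The ratio depended on signal over all genes. Among measured genes split into 20 groups of like signal, the median log2 ratio went from -0.29 in the dimmest to 0.24 in the brightest. Ctsk lay in the brightest group, with a ratio at or above 6.94% of its 562 genes. Acp5 lay in a group with a median of 0.20, at or above 4.09% of it. Tcirg1 (group median 0.08), Atp6v0d2 (0.01) and Tnfsf11 (-0.04) were at 9.43%, 16.2% and 27.8% of theirs. Of the 5 genes, the brighter ones therefore lay further below genes of like signal than Tnfsf11 did. Among all measured genes, whatever their signal, the 5 ratios lay between percentile 12.0 (Tcirg1) and 22.1 (Ctsk). Scaling by a constant does not move these ranks, but for its small effect through the floor and the filter.

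**Figure D2:**
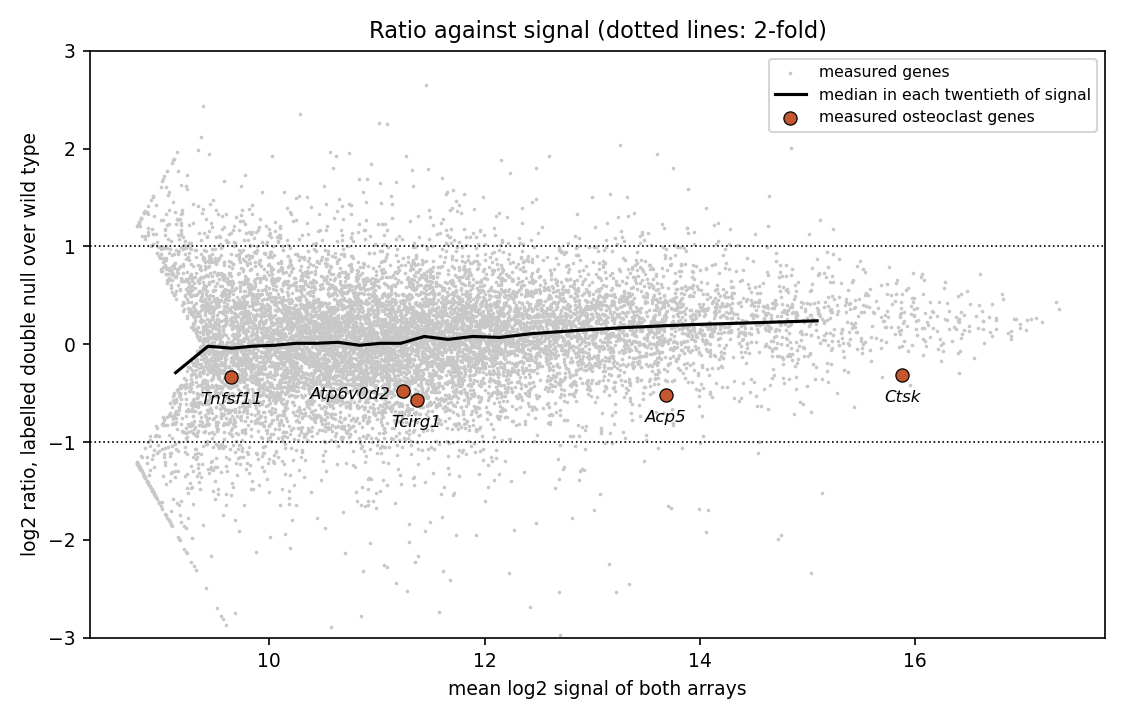
Log2 ratio (labelled double null over wild type) against the mean log2 signal of both arrays for 11238 measured genes (grey; 24 lie outside the plotted range), with the median in each of 20 groups of like signal (black line) and the 5 measured osteoclast genes (orange). All 5 lie below the level of the black line, Ctsk to the right of its end, and above the dotted line at 2-fold lower.

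Promoter sequence is shown for Acp5 and Ctsk, the measured enzymes, and for Oscar, which had the opposite direction. The RefSeq promoter table (GRCm38.p6) matched 7 of the 10 genes, with 12 start sites. The 250 bases before each start were searched on both strands for 4 motifs of factors known in osteoclasts: TGGAAA (NFAT core), TGANTCA (AP-1), GAGGAA (PU.1 core) and CATGTG (an E-box bound by MITF and TFE factors). Capitals mark the matches, which do not overlap. The windows are chr9:22130599-22130848 (minus strand, the third of 3 Acp5 starts), chr3:95498960-95499209 (plus strand) and chr7:3616158-3616407 (minus strand).
Acp5: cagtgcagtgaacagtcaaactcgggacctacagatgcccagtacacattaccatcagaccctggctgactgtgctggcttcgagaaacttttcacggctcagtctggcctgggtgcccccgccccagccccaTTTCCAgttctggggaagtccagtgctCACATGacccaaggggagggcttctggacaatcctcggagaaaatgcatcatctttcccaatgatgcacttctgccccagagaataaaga
Ctsk: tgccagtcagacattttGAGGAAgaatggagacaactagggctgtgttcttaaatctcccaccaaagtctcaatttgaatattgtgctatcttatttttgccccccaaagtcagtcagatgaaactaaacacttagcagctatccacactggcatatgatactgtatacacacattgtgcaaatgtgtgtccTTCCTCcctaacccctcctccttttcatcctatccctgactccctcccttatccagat
Oscar: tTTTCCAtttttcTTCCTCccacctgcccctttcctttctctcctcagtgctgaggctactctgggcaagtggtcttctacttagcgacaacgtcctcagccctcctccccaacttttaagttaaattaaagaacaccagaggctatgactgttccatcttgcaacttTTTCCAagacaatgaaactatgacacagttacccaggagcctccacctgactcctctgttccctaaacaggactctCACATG

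The Acp5 window held an NFAT core match whose first base lay 117 bases before the start and an E-box match at 90 bases. Ctsk had PU.1 core matches at 233 and 58 bases. Oscar had NFAT core matches at 249 and 82 bases, a PU.1 core match at 237 and an E-box match at 6. The first and second Acp5 starts held no match to any of the 4 motifs, and the third is shown because it holds them. These motifs are short and common: of 32851 promoter windows of the same length, 18.6% held the NFAT core, 6.75% the AP-1 motif, 23.3% the PU.1 core and 12.3% the E-box. Among the 12 windows of the 7 genes, 2, 0, 3 and 2 held them. A match describes letters only. Acp5 and Ctsk, lower on the array labelled double null, shared no motif of the 4 in these windows, and Oscar, higher there, held the motifs of both.

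Other genes of resorption moved in no common direction. Of 15 further genes of the resorption machinery, all 15 were measured, 7 below 0 and 8 above, with a median of 0.03. Mmp9, the gelatinase of osteoclasts, read 27025 and 28477 (log2 ratio 0.08, with -0.37 in its other probe set), Itgb3, the integrin chain of the sealing zone, 3678 and 3757 (0.03), and Car2, the carbonic anhydrase that supplies protons, 4348 and 4087 (-0.09). Clcn7, the chloride channel beside the pump, read 1645 and 1381 (-0.25, with -0.71 in its other probe set). Ostm1, the partner of Clcn7, had 0.48, and Src, the kinase needed for the ruffled border, 0.43, with 1.85 in its other measured probe set. Rab7 had 0.39, with -0.04 in its other. Pstpip2, a regulator of macrophage and osteoclast activity, was 2.15-fold lower (869.6 and 405.1). It reached the level for measured genes on the wild-type array only. No other gene of this group was past 2-fold by its representing probe set. Genes of this group thus lay on both sides of 0.

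The other subunits of the vacuolar ATPase, most of which all cells share, mostly had ratios above 0. Of 23 listed, 21 had a probe set assigned to 1 gene and 19 were measured, 16 above 0 and 3 below, where 6330 of all 11238 measured genes were above 0. Their median of 0.25 remained above 0 in all 13 alternatives. Many of these subunits are bright, and the groups of like signal in which they lay had medians that centred on 0.17, close to the list's own. Atp6v0d1, the widely expressed relative of Atp6v0d2, read 8626 and 10303 (0.26). Of the relatives of Tcirg1, Atp6v0a1 read 1055 and 1146 (0.12), Atp6v0a2 1343 and 952.3 (-0.50), and Atp6v0a4 was under the floor on both arrays. Atp6v1g2, a subunit of neurons, had 0.92, Atp6v1f 0.67, Atp6v1a 0.55 and Atp6ap2 0.52. Atp6v1g2 reached the level for measured genes only on the array labelled double null. Tcirg1 (-0.57) and Atp6v0d2 (-0.47) lay below the list's median, with Atp6v0a2 near them, and were compared with dimmer groups (medians 0.08 and 0.01) above.

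Lysosomal proteins had a median of -0.07 over 18 measured of 21, with 10 below 0. Ctsz, cathepsin Z, was 2.10-fold lower (11374 and 5409), and its other probe sets gave a median of -0.85. Ctse was 2.09-fold lower (814.6 and 388.9), but reached the level for measured genes on the wild-type array only. Ctsd had -0.71 and Ctsf -0.64. Ctsl and Ctss, the nearest relatives of Ctsk, had 0.37 and 0.27. The cysteine cathepsins therefore went both ways, with Ctsk (-0.32) below 0 and Ctsl and Ctss above.

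Genes of cell fusion other than Dcstamp and Ocstamp had a median of -0.07 over 9 measured of 10. Sirpa, a receptor of the macrophage lineage that binds Cd47 during fusion, was 2.23-fold lower (1157 and 519.7), whereas Cd47 had 0.48. The level for measured genes was reached by Sirpa on the wild-type array only. Adam8 had -0.53 and the tetraspanin Cd81 0.43.

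Genes of signalling through and around Tnfrsf11a, which include the decoy and Lgr4, a further receptor for the ligand, mostly had ratios above 0. Of 24 listed, 21 had a probe set assigned to 1 gene and 16 were measured, 11 above 0 and 5 below, with a median of 0.33. Over all genes, 6330 of 11238 measured were above 0, and the groups of like signal in which the 16 lay had medians that centred on 0.08. None of the 16 was past 2-fold by its representing probe set. Nfatc1, the master regulator, read 2058 and 1696 (-0.28), and its 4 other measured probe sets ran from -0.32 to 0.66. Traf6, the adaptor of the receptor, had 0.53 and Map3k7 0.89 (with a median of -0.07 in its other probe sets). Ppp3ca, a subunit of the phosphatase that activates Nfatc1, had 0.76, Lgr4 0.60 and Cyld 0.58 (with -0.22 in its other measured probe set). Map2k6 was the lowest at -0.54. Most of these genes also act in other cell types.

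Csf1 and the co-stimulatory genes had a median of 0.08 over 7 measured of 14. Csf1r, the receptor for the survival factor of the lineage, read 31449 and 28053 (-0.16), and its other 2 probe sets gave -0.50 and -1.23. Csf1 itself read 1368 and 1290 (-0.08), with -0.50 and -1.36 in its others. Vav3 had 0.44, Tec 0.34 and Syk 0.33. All 3 measured probe sets of Csf1r, and all 3 of Csf1, were thus below 0, by amounts that varied over more than the SD of 0.51. Regulators of differentiation had a median of 0.03 over 10 measured of 15, from Tfe3 at -0.53 and Esrra at -0.40 to Nfe2l2 at 0.58 and Bcl6, a repressor of osteoclast genes, at 0.65. The other measured probe set of Esrra gave 0.18.

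Factors that regulate Tnfsf11 had a median of 0.02 over 10 measured of 17. Sost, the osteocyte product sclerostin, was 2.45-fold lower (871.8 and 356.2), and Il1b was 1.99-fold higher (356.2 and 710.5). Sost reached the level for measured genes on the wild-type array only, and Il1b on the other only. Wnt5a had -0.59, with 0.07 in its other measured probe set, and Ptger4 0.60. In the calcitonin family 5 of 7 genes were measured, with a median of 0.22. Calcrl, the relative of Calcr, read 1703 and 1978 (0.22), Ramp1 had -0.28, Ramp3 0.22, and the peptide Adm was 3.07-fold higher (1472 and 4515).

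**Figure D3:**
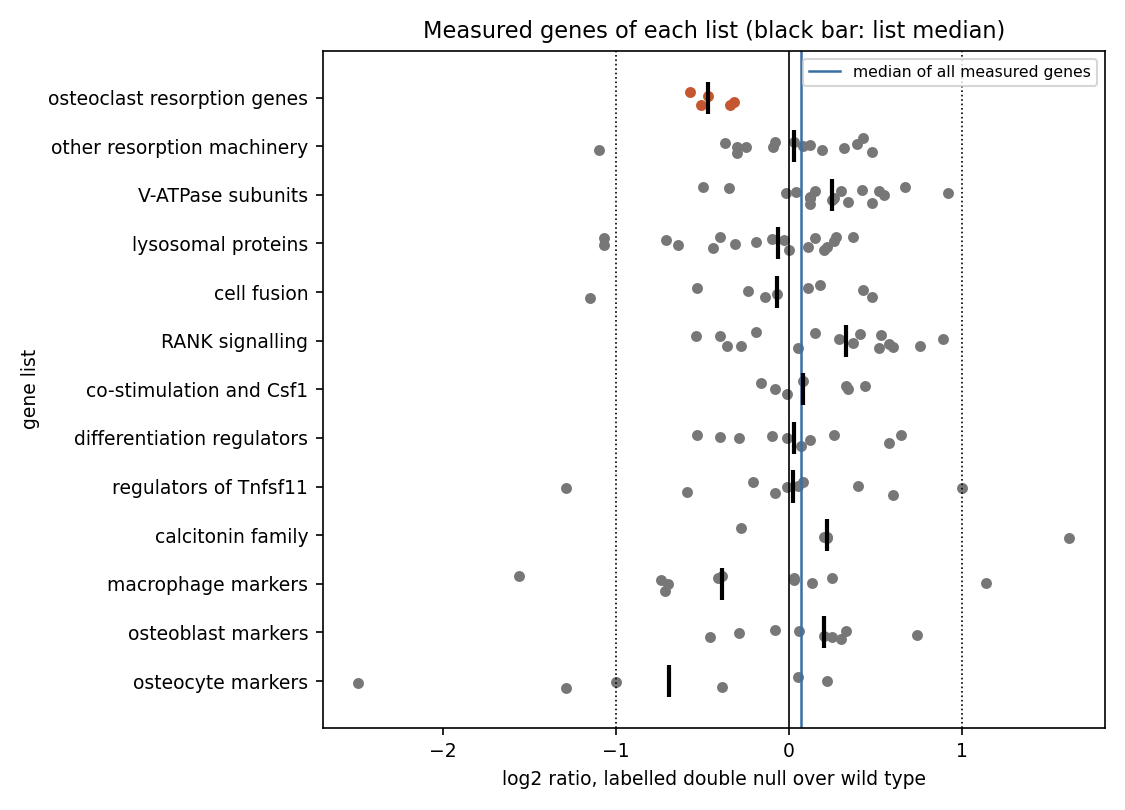
Log2 ratio (labelled double null over wild type) of each measured gene, by list, with the list median (black bar), the median of all measured genes (blue line) and 2-fold (dotted lines). The 5 osteoclast genes, with a median of -0.47, lie between -0.57 and -0.32, while most other lists straddle 0.

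Markers of the cells that form osteoclasts or supply the ligand are given beside these values. Of 15 macrophage markers 11 were measured, 6 below 0 and 5 above, with a median of -0.39 that became 0.03 when genes were counted as measured from the 50th or from the 75th percentile or without a filter. Their summed signal was 31137 on the wild-type array and 28978 on the other. C1qa was at least 2.94-fold lower, Cx3cr1 had -0.74, Adgre1 -0.72 and Cd14 1.14. C1qa and Cx3cr1 reached the level for measured genes on the wild-type array only, and Cd14 on the other only. Of 14 osteoblast markers only 9 had a probe set assigned to 1 gene, and all 9 were measured. Their median was 0.20 and their summed signal 327893 and 388758. Col1a1 was at 0.74 and Sp7, a regulator of osteoblasts, at -0.46. Osteocyte markers, 6 of 7 measured, had a median of -0.70 and a summed signal of 45972 and 30400. Mepe was at least 5.63-fold lower, Dmp1 2.01-fold lower (23284 and 11604) and Irx5 at 0.22. The level for measured genes was reached by Mepe on the wild-type array only. Of 9 T cell markers 7 had a probe set assigned to 1 gene, and 3 of these were under the floor on both arrays. The 2 measured were Cd8a, 7.40-fold lower (4137 and 559.2), and Thy1, which neurons share (0.08). Cd8a has 5 probe sets, and only the one used was measured, on the wild-type array only. It is of a kind that may also bind other transcripts, so its reading may not be of T cells. Cartilage markers, 4 of 8 measured, had a median of 0.23 with Col2a1 at 0.67 and Acan at -0.56. With the processing used, macrophage and osteocyte markers thus lay on the side of the osteoclast genes by their medians, and osteoblast and cartilage markers on the other. The osteoblast median was 0.00 with quantile normalization and 0.04 with scaling on the median ratio of reference genes. The part of these markers in the values of the osteoclast genes was not tested.

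Scaling to an equal median signal of reference genes raised list medians along with those of all genes (0.50). Medians a little below 0 turned positive, such as that of the lysosomal proteins (0.35). Those of the osteocyte (-0.28), T cell (-0.99), skeletal muscle (-0.81) and oral epithelium (-0.18) markers stayed below 0. The macrophage median went from -0.39 to 0.44, by more than the 0.43 of all genes, but over 13 measured markers in place of 11. Apart from it, the medians that crossed 0 were those nearest 0 among the medians below it. The distance of the osteoclast genes from the median of all genes moved less with the processing than their ratio did. Scaling by a constant shifts the osteoclast genes and all genes together, so it can hardly change this distance. The median of the measured genes lay 0.55 log2 units under that of all genes, and the distance ran from 0.33 to 0.59 units over the 13 alternatives.

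**Figure D4:**
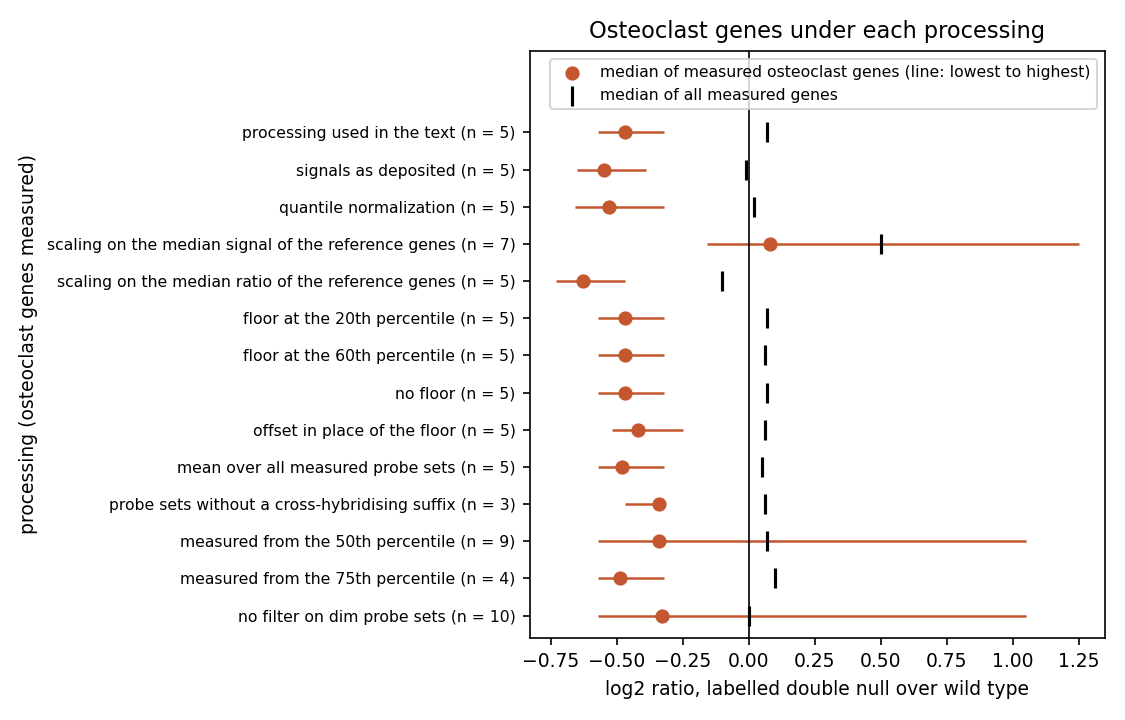
Median log2 ratio of the measured osteoclast genes (point) with their lowest and highest (line), and the median of all measured genes (black tick), under the processing used and 13 alternatives, with n the number of osteoclast genes measured. The point lies left of the tick in each, from -0.63 to 0.08, and the lines that reach past 1 hold Oscar.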

How the data were processed

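Total RNA (6 µg per sample, per the labels' protocols) was hybridised to Affymetrix arrays. The deposited values are linear MAS5 signal intensities, which the authors made for each probe set, as the submitters' processing notes name that tool; version and detection calls are not given in the sources used here. The trimmed mean without 2% at either end was 1500.01 on both arrays.

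Control probe sets (64 of 45101) were left out. Arrays were scaled (factors 0.974 and 1.03) on the median of the probe sets that were in the upper part (from the 50th percentile) of both, and floored at the 40th percentile (286.9) before log2. A gene was represented by its brightest probe set (mean log2 signal), measured from the 60th percentile (658.5). Platform annotation gave the names, and RefSeq had the same symbol for all 14 probe sets. The number of arrays limits precision, and no test was possible. The pooled SD came from 10190 probe sets of 4030 genes. The 10 genes and all lists were chosen with earlier results of these data known. Named genes were the 10, up to 4 measured genes per list with the largest absolute ratio, the gene furthest the other way, and 16 fixed relatives and regulators; Myod1, Myf5, Eif2s3y and Xist check the labels. Steps were tested on simulated data. Python 3.11.15, numpy 2.4.6, pandas 2.3.3 and matplotlib 3.10.9 were used.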

Additional observations from a re-analysis of the deposited data

How the results depend on the processing

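The median log2 ratio of the measured osteoclast genes stayed below 0 in 12 of 13 alternatives, from -0.63 to -0.33, and became 0.08 with the arrays scaled to an equal median signal of reference genes, where the median of all genes was 0.50. Under that scaling 7 genes were measured, with the highest at 1.25, so the 0.08 is not over the same 5 genes. Of those 5, Ctsk had 0.10 and Tnfsf11 0.08, while Acp5 (-0.10), Tcirg1 (-0.16) and Atp6v0d2 (-0.06) stayed below 0. The middle value of the 5 was thus -0.06. No measured gene of the 10 was at least 2-fold lower in any alternative. At 1.5-fold, counted under the alternatives after seeing the data, 2 genes (Acp5 and Tcirg1) were lower with the signals as deposited and with quantile normalization, 3 (with Atp6v0d2) with scaling on the reference genes' median ratio, and none in the other 10. The count at least 2-fold higher went from 0 to 1 in 3 alternatives, because Oscar then counted as measured. These were scaling on the median signal of reference genes, genes measured from the 50th percentile, and no filter. The balance of all genes moved with the scaling. With scaling on the reference genes' median signal, 1.68% were at least 2-fold lower and 13.9% higher. With scaling on their median ratio these shares were 6.36% and 2.04%. The ligand-to-decoy ratio was not run, because Tnfrsf11b was not measured. No paired analysis was possible because each genotype has 1 array.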
